A study of Mus musculus with 4 samples.

Results

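The genes described here are 36 that encode the enzymes and regulators of sterol and fatty acid synthesis, chosen by symbol from a fixed list. That list was made with earlier results of these data known. All 36 had a row among the 23282 rows of the count tables, and all 36 passed the filter on low counts, among 13070 genes tested. They fall into 18 genes of the sterol branch, 13 of the fatty acid branch and 5 that control both; some enzymes of the textbook pathways are not in the list. Primary pancreatic acinar cells of C57BL/6J mice were kept with 25 ng/ml recombinant human EGF and 2.5% FBS, together with trypsin inhibitor and antibiotics, in all groups. They were transduced for 36 hours, at a multiplicity of infection of 100, with an adenovirus carrying either ERRγ (gene Esrrg, an orphan nuclear receptor known for its role in oxidative metabolism) or green fluorescent protein (GFP), with 2 libraries for each virus. The labels name neither the promoter of the virus nor the animals behind each library, so the p-values reflect the spread among these libraries alone and that spread may be technical.

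Cholesterol is built from acetyl-CoA through mevalonate, isoprenoid diphosphates, squalene and lanosterol, and fatty acids are built from the same precursor through malonyl-CoA. Both branches are controlled by the SREBP transcription factors: the escort protein SCAP carries them from the endoplasmic reticulum to the Golgi for cleavage, and INSIG proteins hold the complex back when sterols are plentiful. Because cleavage sets their activity, the transcript level of an SREBP gene is an incomplete measure of it. In the exocrine pancreas the same pathways supply the membranes of an extensive secretory endoplasmic reticulum.

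The libraries held 10105604 to 11012351 counts. Esrrg had 1453 and 12994 counts in ERRγ libraries 1 and 2 and 86 and 107 in GFP libraries 1 and 2, so that both ERRγ libraries were higher but differed widely from each other. Defining acinar markers were scarce: 12 listed genes summed to between 87.95 and 93.6 CPM (each count relative to the scaled size of its library) with ERRγ and between 46.6 and 92.8 CPM with GFP, 1 of the 9 tested (Prss2) rose, and Ptf1a and Ctrc had no count in any library. The 7 ductal markers summed to 2390 and 2890 CPM with ERRγ and to 3229 and 3131 CPM with GFP, where Cftr rose and Krt7 and Muc1 fell. The calls of Prss2 (adjusted p = 0.0720 and 0.0962), Cftr (0.312 and 0.157), Krt7 (0.265 and 0.212) and Muc1 (0.203 and 0.233) ended when GFP library 1 or 2 was left out, with the same direction. The 9 fibroblast or stellate markers summed to 883 and 636 against 1086 and 664 CPM and the 6 endocrine markers to 44.7 and 13.0 against 183 and 26.0 CPM, with no call in either list. The macrophage list stayed between 7.31 and 14.8 CPM and the endothelial list between 2.96 and 10.2 CPM in all 4 libraries. The values are those of these cultures, in which fewer cells of a type and less RNA per cell cannot be told apart, and the part of other cell types in the results was not tested.

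With ERRγ, 1 of the 36 genes passed the test: Idi1 of the mevalonate steps rose 2.97-fold. No member fell, and no member of the fatty acid branch or of the control group passed. In these groups 1 and 2 members had an unadjusted p under 0.05. DESeq2 called 1 in each (Acss2 and Insig1), where it called 757 genes higher and 342 lower over all genes. The call of Idi1 alone is 2.78% of the members, where 6.84% of all genes tested passed, 5.06% upward and 1.78% downward (edgeR's quasi-likelihood test, adjusted p under 0.05 over all genes tested). At an unadjusted p under 0.05 there were 9 of the 36 members, against 23.1% of all genes. The median log2 fold change (log2FC) was 0.08 in the sterol branch, 0.09 in the fatty acid branch and 0.01 in the control group, against −0.01 for all genes tested. The groups did not overlap for 22 members, 13 higher and 9 lower with ERRγ. That is 61.1% of the members, where 54% of all genes did not overlap, 27.4% higher and 26.6% lower. A change as large as 2-fold in either direction lay outside the 95% interval of the fit for 22 members, and for the other 14 the interval reached it.

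**Figure D1:**
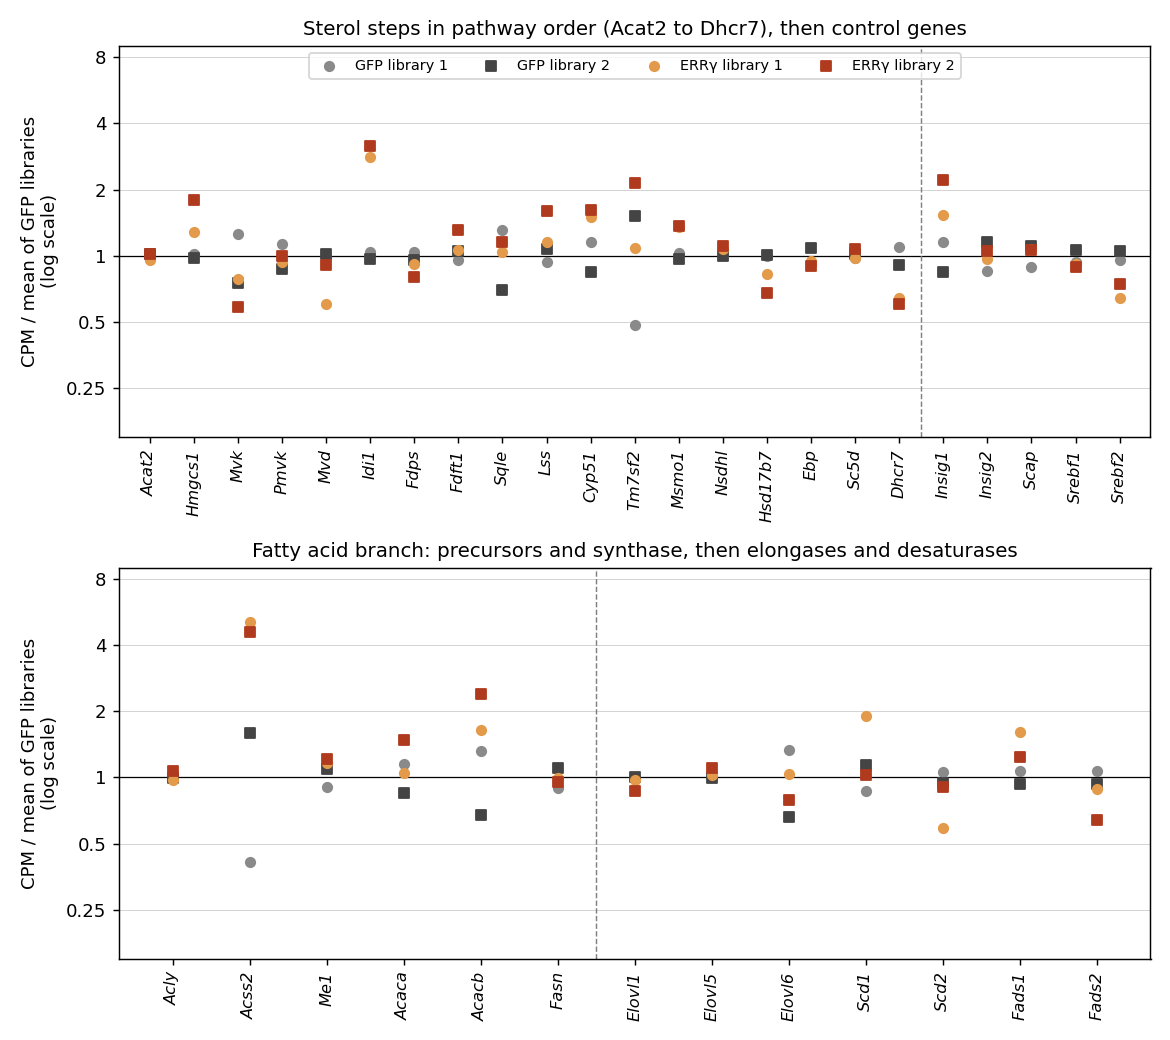
CPM of each member in each library, divided by the mean of the GFP libraries, on a log scale; grey symbols are GFP and coloured symbols ERRγ. Idi1 and Acss2 in both ERRγ libraries stand clear of the GFP libraries, which lie far apart for Acss2. Acat2, Sc5d, Acly and Fasn lie close to 1 in all 4.

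Among the mevalonate steps, Idi1 encodes isopentenyl diphosphate isomerase, which interconverts isopentenyl and dimethylallyl diphosphate (chromosome 13, 8885501 to 8892451, plus strand, GRCm38). It had 167 and 170 counts in the ERRγ libraries and 54 and 57 in the GFP libraries, that is 14.9 and 16.8 against 5.52 and 5.11 CPM. Both ERRγ libraries were high and close to each other, and the lower of them was 2.70 times the higher GFP library. The mean went from 5.31 ± 0.289 to 15.8 ± 1.34 CPM (SD, n = 2; log2 fold change 1.57, SE 0.26, edgeR adjusted p = 0.0135). Leaving out GFP library 1 (adjusted p = 0.13, log2FC 1.62) or GFP library 2 (adjusted p = 0.131, log2FC 1.52) ended the call; the ERRγ libraries alone then set the spread.

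Hmgcs1, the cytosolic synthase that makes HMG-CoA, stood at 85.6 and 119.8 CPM with ERRγ and at 68.3 and 65.4 CPM with GFP. The groups did not overlap, but ERRγ library 2 was 1.40 times library 1, and the gene did not pass (log2FC 0.62, SE 0.18, adjusted p = 0.0834). Acat2, the acetyl-CoA acetyltransferase of the first step, stood at 127 and 135 against 131 and 135 CPM (log2FC −0.02, 95% interval −0.32 to 0.27). The kinases and the decarboxylase between HMG-CoA and Idi1 leaned the other way or stayed level: the log2 fold change was −0.54 for mevalonate kinase Mvk, −0.05 for phosphomevalonate kinase Pmvk and −0.41 for mevalonate diphosphate decarboxylase Mvd, none of which passed (adjusted p from 0.418 to 0.952). Fdps, the farnesyl diphosphate synthase downstream of Idi1, was at 26.9 and 23.6 CPM with ERRγ and 30.7 and 28.1 CPM with GFP (log2FC −0.22, 95% interval −0.61 to 0.18). The enzymes on either side of Idi1 in the pathway thus did not pass with it, and the median of the 7 mevalonate genes was −0.05.

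Of the 11 genes from squalene to cholesterol none passed. An unadjusted p under 0.05 was found for 4 of the 11, against 23.1% of all genes tested. The 4 were Cyp51, Msmo1, Dhcr7 and Hsd17b7. Cyp51, the lanosterol demethylase, was at 45.8 and 49.2 CPM with ERRγ and 35.3 and 25.8 CPM with GFP (log2FC 0.64, SE 0.18, adjusted p = 0.0805). Msmo1, the methylsterol monooxygenase of the next demethylation steps, was at 101.7 and 102.9 against 77.7 and 72.7 CPM (log2FC 0.44, SE 0.13, adjusted p = 0.0878). Both were higher in each ERRγ library than in each GFP library. Dhcr7, the reductase that makes cholesterol from 7-dehydrocholesterol, was lower in both ERRγ libraries, at 7.93 and 7.50 against 13.6 and 11.2 CPM (log2FC −0.68, SE 0.27, adjusted p = 0.177). Hsd17b7, a ketosteroid reductase of the C4 demethylation complex, was also lower in both (log2FC −0.41, adjusted p = 0.215).

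The squalene epoxidase gene Sqle, which encodes a rate-limiting enzyme, was at 18.6 and 20.7 CPM with ERRγ and 23.4 and 12.5 CPM with GFP. The ERRγ libraries lay between the GFP libraries, and the 95% interval of the log2 fold change ran from −0.55 to 0.83. The squalene synthase gene Fdft1 (log2FC 0.24), the lanosterol synthase gene Lss (0.46), the 3-beta-hydroxysteroid dehydrogenase gene Nsdhl (0.13), the isomerase gene Ebp (−0.12) and the desaturase gene Sc5d (0.03) gave adjusted p-values from 0.457 to 0.932. Tm7sf2, a sterol C14 reductase gene, was too sparse for a close estimate, with 23 and 41 against 9 and 32 counts (log2FC 0.66, SE 0.65). In this stretch 8 genes had a log2 fold change above 0 and 3 below, with a median of 0.14.

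**Figure D2:**
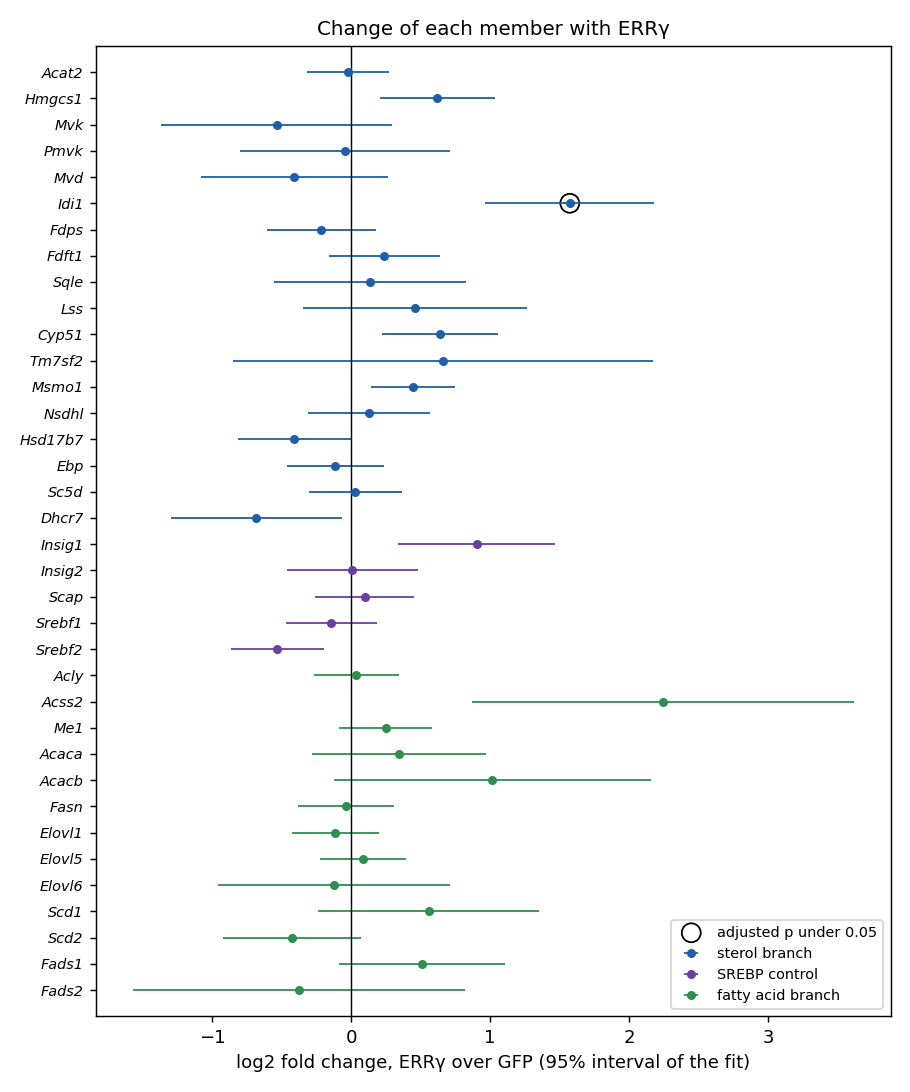
Log2 fold change of each member with ERRγ over GFP and its 95% interval; colours mark the branches and the open circle the member with an adjusted p under 0.05. Idi1 (1.57) is the circled member; Acss2 has the largest estimate (2.25) and a wide interval.

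The 5 control genes did not pass, and 2 of them leaned in opposite directions. Insig1, which retains the SCAP and SREBP complex and is itself a classical SREBP target, was at 26.1 and 37.5 CPM with ERRγ and 19.7 and 14.3 CPM with GFP (log2FC 0.90, SE 0.25, adjusted p = 0.07). Srebf2, which encodes the SREBP that mainly drives sterol genes, was at 52.9 and 61.4 CPM with ERRγ and 78.6 and 86.6 CPM with GFP (log2FC −0.53, SE 0.15, adjusted p = 0.0714). Srebf1, which encodes the isoforms that mainly drive fatty acid genes, was at 47.3 and 45.6 against 48.1 and 54.6 CPM (log2FC −0.15, 95% interval −0.47 to 0.18). The groups did not overlap for Insig1, Srebf2 and Srebf1, that is 60% of the control genes, where 54% of all genes tested did not overlap. Scap was at 67.5 and 66.5 against 55.6 and 69.7 CPM (log2FC 0.10), and Insig2 was at 23.4 and 25.4 against 20.5 and 27.9 CPM (log2FC 0.01, adjusted p = 0.985). For both, the ERRγ libraries lay within the span of the GFP libraries.

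Of the 6 genes of fatty acid precursors and synthase, 5 had a log2 fold change above 0, with a median of 0.30, and none passed. Among them, Acly, Acaca and Fasn had log2 fold changes near 0 or intervals that spanned it. Acly, which cleaves citrate to cytosolic acetyl-CoA, was at 102 and 112 CPM with ERRγ and 105 and 104 CPM with GFP (log2FC 0.04, 95% interval −0.27 to 0.34). Acaca, the acetyl-CoA carboxylase that makes malonyl-CoA for synthesis, was at 14.1 and 19.9 against 15.4 and 11.4 CPM (log2FC 0.34, 95% interval −0.28 to 0.97). Fasn, the fatty acid synthase, was at 77.3 and 73.8 against 69.7 and 85.6 CPM (log2FC −0.04, 95% interval −0.39 to 0.31). For Acly, Acaca and Fasn the groups overlapped. For the other 3 genes of this list, Me1, Acss2 and Acacb, they did not. All 3 were higher with ERRγ, where 27.4% of all genes tested did not overlap in that direction. Me1, the cytosolic malic enzyme that supplies NADPH, was at 138 and 144 against 107 and 130 CPM (log2FC 0.25, adjusted p = 0.351).

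Acss2, which makes acetyl-CoA from acetate, had the largest estimate among the members and the lowest count in any library. It had 71 and 58 counts in the ERRγ libraries and 5 and 22 in the GFP libraries, that is 6.33 and 5.72 against 0.511 and 1.97 CPM. The ERRγ libraries were close to each other and above both GFP libraries. The lower ERRγ library was 2.90 times the higher GFP library, and the GFP libraries differed 3.86-fold between themselves. The gene did not pass (log2FC 2.25, SE 0.60, 95% interval 0.87 to 3.62, adjusted p = 0.0651), and it did with DESeq2 (2.25, adjusted p = 0.0219), with a replicate block (2.39, adjusted p = 0.0479), without a filter (2.24, adjusted p = 0.000297) and without either ERRγ library. Its log2FC was 1.60 when GFP library 1 was left out and 3.53 when GFP library 2 was. Acss2 (chromosome 2, 155517948 to 155585724, plus strand) ends inside Gss, the glutathione synthetase gene of the opposite strand, which rose from 20.0 ± 1.10 to 43.6 ± 4.15 CPM (log2FC 1.13, adjusted p = 0.00778, and 1.18, adjusted p = 0.105, or 1.07, adjusted p = 0.101, when GFP library 1 or 2 was left out). Whether counting used strand is not given in the sources used here, so reads of Gss in the count of Acss2 cannot be told apart from its own. Acacb, the carboxylase at the mitochondrial surface whose product restrains fatty acid oxidation, had 44 and 58 against 31 and 18 counts (log2FC 1.01, SE 0.49, adjusted p = 0.267).

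The 7 elongase and desaturase genes did not pass, 0 of them had an unadjusted p under 0.05 and DESeq2 called 0; they had a median of −0.11. Scd1 and Scd2, which encode stearoyl-CoA desaturases that make monounsaturated chains, differed most between the ERRγ libraries. Scd1 was at 17.4 and 9.37 CPM with ERRγ and 7.87 and 10.3 CPM with GFP (log2FC 0.56, adjusted p = 0.381), so that only ERRγ library 1 lay above the GFP libraries. Scd2 was at 25.0 and 38.4 against 45.2 and 40.0 CPM (log2FC −0.43, adjusted p = 0.281), with ERRγ library 1 again farthest from GFP. Without ERRγ library 2 both passed, Scd1 at 0.93 (adjusted p = 0.0215) and Scd2 at −0.77 (adjusted p = 0.00375); leaving out ERRγ library 1 instead gave 0.04 and −0.15. These genes are related copies of the same cluster on chromosome 19, and how reads that fit several copies were handled is not stated, so their single values are uncertain.

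The front-end desaturase genes of polyunsaturated chains pointed apart, Fads1 at 15.9 and 12.2 against 10.5 and 9.23 CPM (log2FC 0.51, adjusted p = 0.288) and Fads2, with 23 and 15 against 24 and 24 counts, at −0.38 (adjusted p = 0.718). The elongase genes had log2 fold changes of −0.11 for Elovl1, 0.09 for Elovl5 and −0.12 for Elovl6. The interval of Elovl1 and of Elovl5 stayed between −0.43 and 0.40, while that of Elovl6 ran from −0.96 to 0.71, with GFP libraries at 16.1 and 7.98 CPM.

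Summed over their genes, the lists of both branches stood at 0.97 to 1.14 times the GFP mean. Such sums are set mostly by the most abundant genes, as Acat2 and Hmgcs1, or Acly, Me1 and Fasn. They say little of genes at low CPM, such as Acss2 and Acacb. The 7 mevalonate genes summed to 275 and 318 CPM with ERRγ and to 266 and 259 CPM with GFP. The 11 genes from squalene on summed to 333 and 348 against 307 and 293 CPM. The 6 genes of fatty acid precursors and synthase summed to 342 and 361 against 301 and 334 CPM, and the 7 elongase and desaturase genes to 210.3 and 204 against 219 and 208 CPM. The sterol sums and the precursor sum were higher in both ERRγ libraries, with ratios of means of 1.13, 1.14 and 1.11, and the elongase and desaturase sum was at 0.97 of the GFP mean.

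ERRγ library 2 had 9.902 times the Esrrg CPM of library 1. Over the members the median log2 difference of library 2 from library 1 was 0.09, against −0.01 between the GFP libraries. It was 0.10 for the mevalonate genes, against −0.11 between the GFP libraries, and 0.10 for the squalene-to-sterol genes, against 0.01. The median elongase or desaturase gene was lower in library 2 of both groups, at −0.37 with ERRγ and −0.18 with GFP. Not every gene of that list was: Scd2 was 1.53 times as high in ERRγ library 2 as in library 1. Scd1 was 1.31 times as high in GFP library 2. Idi1 was 1.13 times as high in library 2 as in library 1, Hmgcs1 1.40 times, Insig1 1.44 times and Acss2 0.904 times. None of these ratios was near the 9.902 of Esrrg, Acss2 and Idi1 having the largest estimates among the members. With 2 libraries no relation to the Esrrg level was tested.

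**Figure D3:**
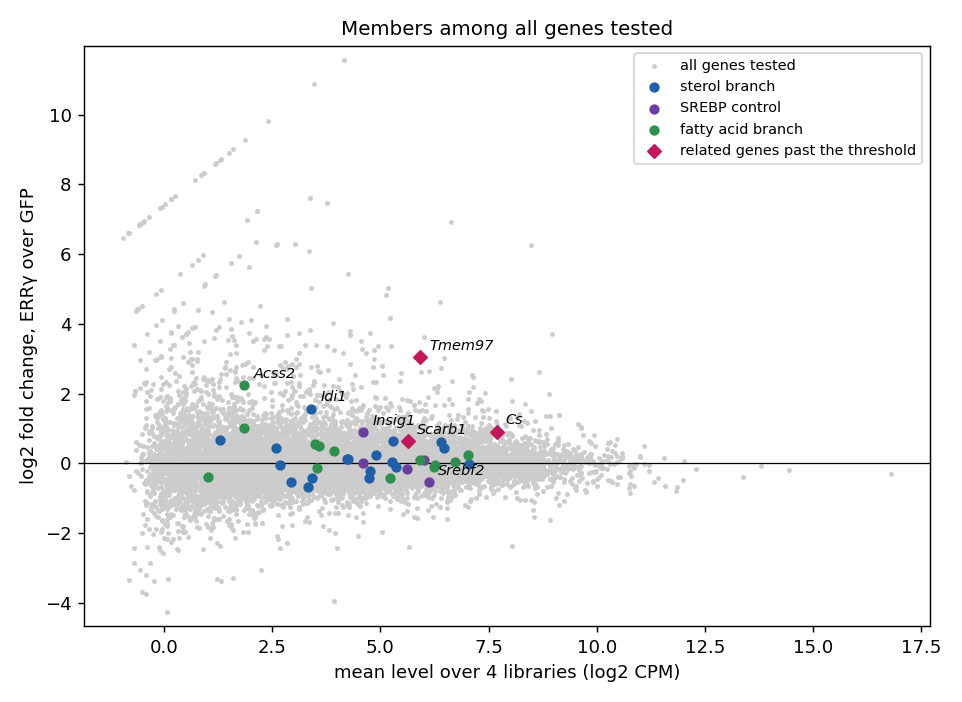
Log2 fold change with ERRγ against the mean level over the 4 libraries for all genes tested (grey), with the members in colour and the related genes that passed as diamonds. The diagonal rows of grey points at the upper left are genes with few or no GFP counts, whose estimates depend on the prior count. The members lie mostly within the bulk of genes of like level; Tmem97 (3.04) stands far above it.

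Related genes outside the members were read from 5 lists of isoprenoid use, sterol transport and esterification, other regulators, other acyl chain enzymes, and citrate export with NADPH supply. Of 54 genes listed, 48 were tested, 3 rose and none fell. That is 6.25%, where 6.84% of all genes tested passed, 5.06% upward and 1.78% downward. The lists were chosen with earlier results of these data known, so this share is a description only. The median log2 fold change of the 48 was 0.06. The 3 were Tmem97, Scarb1 and Cs. Tmem97, which encodes a sterol-responsive membrane protein of the endoplasmic reticulum also known as the sigma-2 receptor (chromosome 11, 78541817 to 78550777, minus strand), had 1139 and 1162 counts in the ERRγ libraries and 127 and 148 in the GFP libraries. It rose 8.23-fold, from 13.1 ± 0.205 to 108 ± 9.30 CPM (log2FC 3.04, SE 0.15, adjusted p = 0.000111). Its call held without any single library (adjusted p at most 0.00958). No other coding gene overlaps it in the annotation.

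Scarb1, the receptor for high-density lipoprotein, which takes up cholesteryl ester, rose 1.56-fold, from 38.1 to 39.1 CPM in the GFP libraries to 58.8 to 62.0 CPM in the ERRγ libraries (log2FC 0.65, SE 0.14, adjusted p = 0.0309). Cs, the citrate synthase of the mitochondrion whose product is the substrate of Acly once exported, rose 1.88-fold, from 143 ± 7.82 to 270 ± 16.7 CPM (log2FC 0.91, SE 0.13, adjusted p = 0.00865). Both calls ended when a GFP library was left out: Scarb1 was at 0.66 without library 1 (adjusted p = 0.249) and 0.62 without library 2 (0.233), and Cs at 0.97 (0.122) and 0.86 (0.131). Tmem97 and Scarb1 were the 2 of 11 sterol transport genes that passed, and the median of that list was −0.29. No gene passed among the 8 tested of isoprenoid use (median 0.20), the 9 other regulators (0.04) or the 12 other acyl chain enzymes (−0.10). An unadjusted p under 0.05 was found for 2 of the 8, 1 of the 9 and 0 of the 12, against 23.1% of all genes tested. In the sterol transport list it was found for 4 of 11. Cs was the 1 of 8 that passed in the list of citrate and NADPH (median 0.19), where 3 of 8 had an unadjusted p under 0.05. Fatty acid synthesis is also a trait of adipocytes, whose 7 listed markers summed to 8.20 and 6.51 CPM with ERRγ and 0.817 and 1.26 CPM with GFP. Fabp4, which endothelial cells and macrophages also express, carried 85 and 55 of these counts against 5 and 14 (adjusted p = 0.0214; 0.193 or 0.0833 without GFP library 1 or 2). Plin1 and Lep had no count in any library and Adipoq had 0 and 4 against 3 and 0. Cidec had 6 and 2, Cfd 1 and 2 and Retn 0 and 3 counts with ERRγ, and none of these 3 had a count with GFP; the part of adipocytes in the results was not tested.

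**Figure D4:**
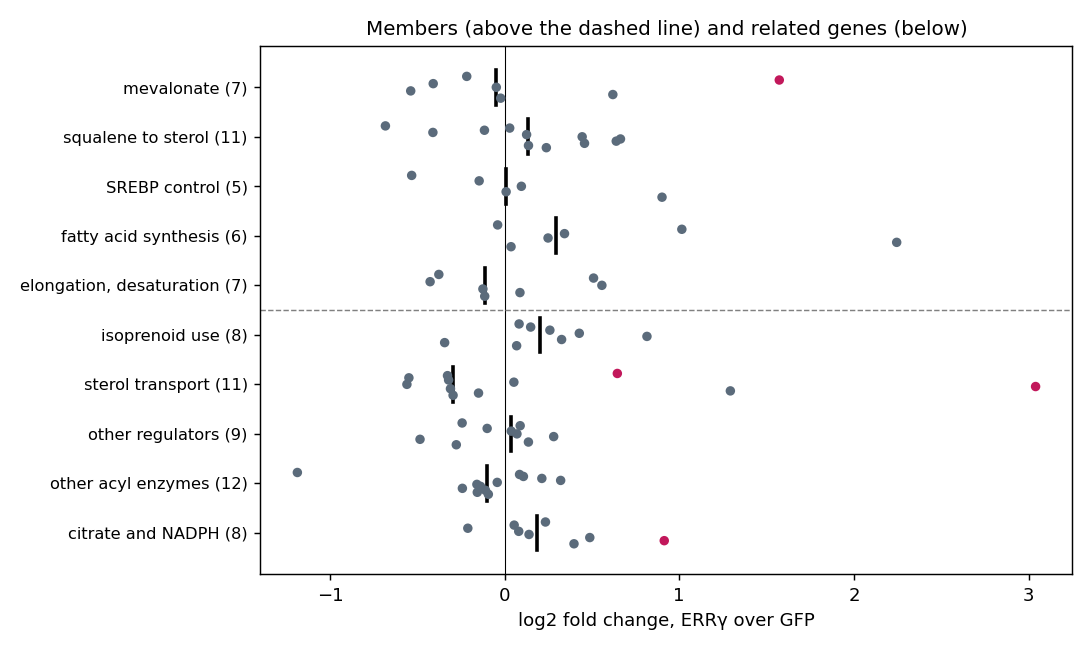
Log2 fold change of each tested gene by list, with the number tested in brackets; the black bars are medians and pink points passed the test. Medians lie between −0.29 and 0.30, and the 4 genes that passed are Idi1, Tmem97, Scarb1 and Cs.

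Promoter sequence was read for the member that passed, Idi1, for Hmgcs1, Cyp51 and Insig1, which were higher in both ERRγ libraries without passing, and for Tmem97. These were chosen after their values were seen. The windows come from RefSeq on GRCm38.p6 and run 5′ to 3′ up to the base before the RefSeq start site: chr13:8885456-8885605 (plus strand) for Idi1, chr13:119690101-119690350 (plus) for Hmgcs1, chr5:4104698-4104847 (minus) for Cyp51, chr5:28071162-28071411 (plus) for Insig1 and chr11:78550736-78550885 (minus) for Tmem97. The GENCODE gene models of Idi1, Cyp51, Insig1 and Tmem97 begin within these windows, before the RefSeq start. Capitals mark CCAAT or its reverse complement ATTGG, the box bound by NF-Y, a known partner of SREBP; in Hmgcs1 they also mark a match to the sterol element TCACNCCAC, and in Insig1 the E-box CACGTG.
Idi1: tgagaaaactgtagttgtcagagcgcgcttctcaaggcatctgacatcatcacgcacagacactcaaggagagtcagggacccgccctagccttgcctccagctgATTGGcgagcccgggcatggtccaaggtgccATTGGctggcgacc
Hmgcs1: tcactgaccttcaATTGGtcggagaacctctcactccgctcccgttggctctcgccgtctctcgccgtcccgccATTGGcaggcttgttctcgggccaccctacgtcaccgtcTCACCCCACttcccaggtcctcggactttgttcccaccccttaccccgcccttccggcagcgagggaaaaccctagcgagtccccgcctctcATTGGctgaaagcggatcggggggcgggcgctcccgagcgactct
Cyp51: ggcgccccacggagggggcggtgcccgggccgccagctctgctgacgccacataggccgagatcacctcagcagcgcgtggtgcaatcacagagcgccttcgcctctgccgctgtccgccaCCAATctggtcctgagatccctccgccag
Insig1: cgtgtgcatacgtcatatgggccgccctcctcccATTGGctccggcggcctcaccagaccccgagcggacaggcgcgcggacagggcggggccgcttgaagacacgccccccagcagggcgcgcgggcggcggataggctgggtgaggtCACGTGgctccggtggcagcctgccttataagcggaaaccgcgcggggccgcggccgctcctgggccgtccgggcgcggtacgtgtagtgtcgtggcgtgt
Tmem97: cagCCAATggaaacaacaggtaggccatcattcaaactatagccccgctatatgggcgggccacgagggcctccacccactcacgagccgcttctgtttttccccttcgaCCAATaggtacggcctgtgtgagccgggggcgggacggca
In the window of Idi1 the CCAAT matches began 45 and 14 bases before the RefSeq start site, and in that of Tmem97 147 and 40 bases before it. By the GENCODE starts, the Idi1 matches, the Cyp51 match and the nearer Tmem97 match lie inside the gene models. The sterol element of Hmgcs1 began 137 bases before the start.

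Windows of 300 bases, from 250 before to 50 after the start, were found for 30 of the 36 members, 15 of the sterol branch, 5 control genes and 10 of the fatty acid branch. CCAAT, searched on both strands, was present in 25 of the 30 (83.3%), in 14 of 15 sterol genes, 4 of 5 control genes and 7 of 10 fatty acid genes, against 42.3% of 17492 coding genes. Counted by window, since some genes have several, it was in 65% of the members' 40 windows and 37.4% of all 32851. Those windows belong to 27025 genes, coding or not, of which 41.1% held it. TCACNCCAC was found in Hmgcs1 alone (3.33% of members, 1.41% of coding genes), and CACGTG in 6 members (20%, against 8.91%). The extended ERR element TCAAGGTCA was in no member's window and in 0.377% of coding genes. The shorter AAGGTCA, which lies within it, was in Hmgcs1, Dhcr7 and Acacb (10% of members, 4.73% of coding genes). These are matches of letters in short windows and describe no binding.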

How the data were processed

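Transcript-end libraries (Lexogen QuantSeq, 500 ng total RNA) were made from all 4 samples, per the labels' protocols. The deposited values are unnormalized counts of reads by gene symbol, 1 table a library. The submitters' processing notes name Bowtie2, edgeR and mm10; the counting program, gene models, strand setting and filters are not given in the sources used. A transcript is read near its end, so no length scaling was applied. No molecular identifiers are mentioned, so depth sets counting error only: 3 counts are 0.267 to 0.307 CPM.

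Analysis used edgeR 4.0.16 under R 4.3.3. The filter was filterByExpr (minimum count 10), leaving 13070 rows. TMM factors ran from 0.952 to 1.07. A model with the group alone (2 residual degrees of freedom) was fitted by glmQLFit and tested two-sided by glmQLFTest. P-values were adjusted by Benjamini-Hochberg over every gene tested, at 0.05. SE is the log2 fold change over the square root of F, and 95% intervals use the fit's total degrees of freedom. CPM are on TMM library sizes, and ± is the SD over 2 libraries. The fit was tested on simulated data. Within-group chi-square over its degrees of freedom was 22.6 (ERRγ) and 14.3 (GFP), so no library was a copy of another.

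The members and lists were chosen with earlier results of these data known. Libraries were given for members past the threshold, the 5 smallest p in each branch, the control genes, and Hmgcs1, Sqle, Acly, Acaca, Fasn and Scd1; they were also given for Acat2, Fdps, Tm7sf2 and Fads2, chosen after their values were seen, and other members are named with their fold change. Of the related lists, the genes past the threshold were named, at most 3 per list. Gss was named after its values were seen, because Acss2 ends within it. Fdft1, Cyp51, Srebf1 and Elovl1 also end within another coding gene (Ctsb, Akap9, Rai1 and Cdc20, none of which passed), as do Fdps and Mvd within predicted genes. Positions are from GENCODE M21. Alternatives were library totals, DESeq2 size factors, DESeq2 1.42.0, limma-voom (limma 3.58.1), other filters, a replicate block and each library left out.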

Additional observations from a re-analysis of the deposited data

How the results depend on the processing

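No call of the members, Tmem97, Scarb1, Cs, Gss, Esrrg, Prss2, Cftr, Krt7, Muc1 or Fabp4 changed direction under the alternatives run. Of the members without a call, 2 to 5 changed sign when a library was left out. The call of Esrrg ended with limma-voom (log2FC 5.46, adjusted p = 0.0623). That of Cftr ended with library totals in edgeR (log2FC 1.28, adjusted p = 0.0569). Without GFP library 1 or 2 the log2FC of Esrrg was 6.19 or 6.32. With all libraries, the counts over all genes (661 higher, 233 lower) became 1271 and 738 without a filter. Leaving out a library gave 92 to 1597 higher and 7 to 1098 lower, 0 to 4 sterol members higher, 0 to 2 fatty acid members higher and 0 to 1 lower, 0 to 1 control members higher and 0 to 1 lower, and a control median of −0.20 to 0.25. DESeq2 called 757 genes higher and 342 lower among 17888 genes with an estimate. These included 2 sterol members (Idi1 and Hmgcs1), 1 fatty acid member (Acss2) and 1 control member (Insig1), all higher. Without a filter 17888 genes were tested. The members then higher were 3 sterol (Idi1, Hmgcs1 and Cyp51), 1 fatty acid (Acss2) and 1 control (Insig1), with 1 control member lower (Srebf2). Without ERRγ library 1 the members that passed were Idi1, Hmgcs1, Cyp51, Msmo1, Insig1 and Acss2, and without ERRγ library 2 they were Idi1, Cyp51, Srebf2, Acss2, Scd1 and Scd2; these fits take their spread from the GFP libraries only. No member passed without GFP library 1 or without GFP library 2. Library totals, DESeq2 size factors, limma-voom and the filter of 5 CPM gave the same member calls as the fit reported; that filter left 32 members.

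The labels tie no replicate number to a shared animal or batch, and with 2 pairs the numbers were not taken as pairs; the correlation of same-numbered deviations was 0.013 over all genes tested. The median endocrine and acinar marker was lower in library 2 than in library 1 of both groups, with log2 differences of −2.04 (ERRγ) and −2.74 (GFP) for the endocrine list and −1.08 and −2.19 for the acinar list. With a replicate block 776 genes were higher and 315 lower, and 1 fatty acid member passed, Acss2 (log2FC 2.39, adjusted p = 0.0479). SE ran from 0.13 to 0.65 over the members and holds counting error and spread between libraries together; Acss2, Tm7sf2, Fads2 and Acacb had at most 6.33 CPM in any library.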
